A study of Mus musculus with 8 samples.

Results

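Glutathione S-transferases of liver were examined as 10 genes, namely Gsta2, Gsta3 and Gsta4 of the alpha class, Gstm1, Gstm2, Gstm3 and Gstm4 of the mu class, Gstp1 of the pi class, and Gstt1 and Gstt3 of the theta class. All array probes that carry one of these gene names were taken and kept separate, which gave 17 of the 55681 probes on the array. Liver RNA came from 4 male NZO mice (strain NZO/HiBomDife), which are obese and susceptible to diabetes, and 4 male B6 mice (C57BL/6), which are lean and resistant, and each mouse had an array of its own. All 8 mice were 6 weeks old and received the same diet with 45% fat, so that the groups differ by strain and share age, sex and diet. NZO and B6 are inbred strains that differ throughout the genome, and the sequence of the NZO genome under the probes was not analysed here. Every one of the 17 probes was detected well above background in all 8 mice.

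These enzymes couple the thiol of glutathione to electrophilic compounds, such as drug metabolites and products of lipid peroxidation, and the conjugates then leave the hepatocyte through export pumps and are cut to mercapturates. Alpha, mu and pi class enzymes are abundant proteins of the hepatocyte cytosol. Several of their genes are known to be induced through NRF2, which binds antioxidant response elements with small MAF proteins, and through the receptors CAR, PXR and AHR.

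Many of these genes lie in clusters of similar copies, and the probe sequences were compared with those of the other probes on the array. The probe for Gsta2 (A_55_P2170454, chr9:78178856-78178915 of mm9) matched a probe for the gene model Gm10639 of the same locus at 53 of 60 bases without gaps. The first 30 bases of both probes, with the differing base in capitals, read:
Gsta2: gccacagatactggcctctaatTgtttgca
Gm10639: gccacagatactggcctctaatGgtttgca
Counted from the 5′ end of this stretch, the substitution is T23G with Gsta2 as reference. A probe for Gm3776 at the same locus, and a probe named only by an interval on chromosome 9, each shared 46 of 50 aligned bases with the Gsta2 probe. The probe for Gstm3 with the largest difference between the strains (A_55_P2102060, chr3:107766615-107766674 of mm9) shared 25 of 27 aligned bases with the brighter probe for Gstm1 (A_55_P2062190), and the stretches are shown because these probes gave different strain comparisons:
Gstm3: tcatGtacaataaagCctgaaacacac
Gstm1: tcatCtacaataaagTctgaaacacac
The substitutions are G5C and C16T, with Gstm3 as reference. The brighter probe for Gstp1 (A_51_P374464) shared 30 of 35 aligned bases with a probe for Gstp2, and the accessions that the files give for the other Gstp1 probe (A_55_P2031668) include Gstp2 as well. No other probe of another gene name reached 85% identity over at least 25 bases with any of the 17 probes. RNA of near-identical copies can therefore not be fully separated for Gsta2 and Gstp1. The search compared probes with each other and not with transcript sequences. It does not show that the other probes, among them those of the mu class, are specific to their gene.

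The study's methods call a difference at 0.05 for the unadjusted test and at least 0.7 on the log2 scale. With limma and these thresholds, 8 of the 17 probes were lower in NZO, 2 were higher and 7 were not called. Among all 27639 probes tested, 7.08% were lower and 5.16% were higher. With limma's Benjamini-Hochberg adjusted p in the thresholds, 8 probes were lower and 1 was higher, against 5.28% and 4.33% of all probes tested. The probes lower in NZO belonged to Gsta2, Gstm1, Gstm2, Gstm3 and Gstm4, and the higher ones to Gstm4 and Gstt3. The median log2 fold change of the 17 probes was -0.38, and that of all probes tested was 0.01. The mu class held 9 of the 17 probes, 7 of the 8 lower ones and 1 of the 2 higher ones. Levels below are log2 values relative to the 75th percentile of the array, fold changes are NZO minus B6 on the log2 scale with their standard error (SE), and the arrays are given in the order NZO 007, 003, 009 and 011 and B6 011, 010, 015 and 009. In whole liver, fewer cells of a type and less RNA per cell cannot be told apart.

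**Figure D1:**
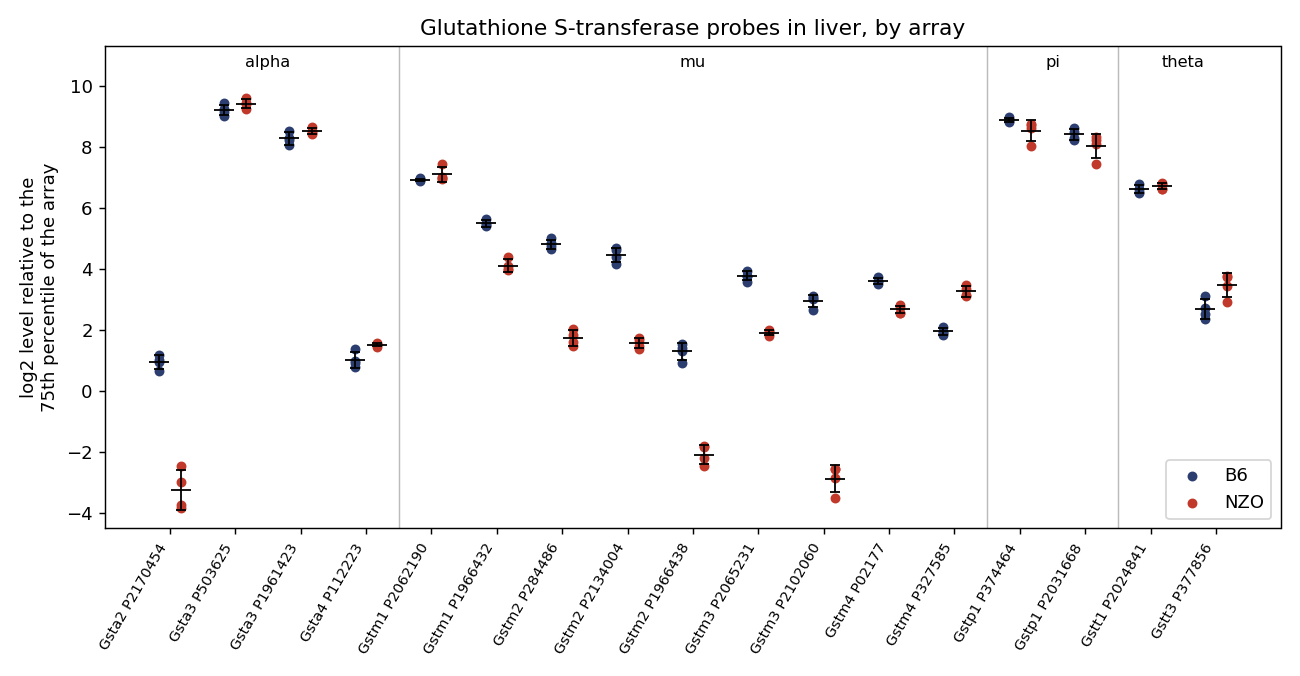
Log2 level of each of the 17 probes on each array (points), relative to the 75th percentile of the array, with the mean and SD of 4 arrays per strain (black bars), grouped by class. At the probe for Gsta2 (-3.82 to -2.46 against 0.66 to 1.17) the red NZO points lie below all blue B6 points, while for the second Gstm4 probe (P327585, 3.11 to 3.46 against 1.84 to 2.09) they lie above.

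Gsta2, an alpha class enzyme known for its induction by antioxidants, was 18.4-fold lower in NZO. The NZO arrays read -3.74, -2.46, -3.82 and -2.99, and the B6 arrays read 1.02, 0.66, 1.17 and 0.95. The strains did not overlap, with a gap of 3.12 between the highest NZO and the lowest B6 array, and the NZO arrays spread more (SD 0.65, n = 4) than the B6 arrays (SD 0.22, n = 4). The log2 fold change was -4.20 (SE 0.30, limma adjusted p = 5.67e-05). With normexp background correction it was -2.15, still past the thresholds. On the single slide that held both strains, with 1 NZO and 2 B6 arrays, the difference was -3.38. The similar gene models of the locus, chosen after their values were seen, were also lower in NZO, with log2 fold changes of -1.59 (SE 0.22) and -1.45 (SE 0.20) at the 2 probes for Gm10639. The probe for Gm3776 was called lower too, but was above background on 3 of the 4 NZO arrays, and no fold is given. These probes were dim in B6 as well, with means of -1.71 and -0.05 for Gm10639 and -2.06 for Gm3776, and the lowest levels found above background on the arrays were -4.63 to -3.95, so a fold as large as that of Gsta2 could not have been measured at the dimmer ones. The part of these copies in the Gsta2 value was not tested.

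Gsta3, the alpha class enzyme that protects mouse liver from aflatoxin, showed no difference past the thresholds at either probe. At the brighter probe (A_51_P503625, chr1:21255189-21255248 of mm9) the NZO arrays read 9.24, 9.42, 9.40 and 9.59, and the B6 arrays read 9.13, 9.25, 9.02 and 9.42. The values overlapped, and the log2 fold changes of the probes were 0.21 (SE 0.12, limma adjusted p = 0.319) and 0.23 (SE 0.12, limma adjusted p = 0.267). Gsta4, which conjugates the lipid peroxidation product hydroxynonenal, was measured by 1 probe printed at 10 spots (A_51_P112223). Its NZO arrays read 1.52, 1.56, 1.53 and 1.43 and its B6 arrays 0.93, 0.80, 1.39 and 0.98. Every NZO array lay above every B6 array, by a gap of 0.04, but the log2 fold change of 0.48 (SE 0.14, limma adjusted p = 0.05) was below 0.7.

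Of the mu class, Gstm2 was lower in NZO at all 3 probes. At the brightest (A_51_P284486, chr3:107784622-107784681 of mm9) the NZO arrays read 1.60, 2.04, 1.48 and 1.85 and the B6 arrays 4.64, 5.0, 4.76 and 4.84, with no overlap. Its log2 fold change was -3.07 (SE 0.15, limma adjusted p = 6.33e-06), an 8.38-fold lower level. The other probes gave -2.89 (SE 0.14) and -3.38 (SE 0.19), the latter with -2.06 after normexp background correction. On the slide with both strains, the difference at the brightest probe was -2.85.

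Gstm3 was lower in NZO at both probes, by very different amounts. At the brighter probe (A_55_P2065231, chr3:107769290-107770549 of mm9), whose 60 bases span 1260 bases of the genome and so cross an exon junction, the NZO arrays read 1.99, 1.97, 1.86 and 1.81 and the B6 arrays 3.58, 3.94, 3.77 and 3.78. The log2 fold change there was -1.86 (SE 0.11, limma adjusted p = 1.58e-05). At the other probe (A_55_P2102060) the NZO arrays read -2.85, -2.56, -3.51 and -2.57 and the B6 arrays 2.65, 3.11, 3.0 and 3.05, a gap of 5.21 between the strains. Its log2 fold change was -5.82 (SE 0.22, limma adjusted p = 2.48e-06), which is a 56.7-fold lower level in NZO and became -3.95 after normexp background correction. On the slide with both strains the differences were -1.89 and -5.62. Neither strain comparison therefore changed direction, while its size depended on the probe.

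Gstm1, a major mu class enzyme of mouse liver, was lower in NZO at 1 of 2 probes. At the probe placed in the mu cluster (A_55_P1966432, chr3:107815595-107815654 of mm9) the NZO arrays read 4.40, 4.08, 4.0 and 3.95 and the B6 arrays 5.64, 5.49, 5.44 and 5.40. The strains did not overlap, and the log2 fold change was -1.39 (SE 0.12, limma adjusted p = 0.000186). At the brighter probe the NZO arrays read 7.43, 7.01, 6.94 and 6.96 and the B6 arrays 6.91, 6.96, 6.88 and 6.94. These values overlapped (log2 fold change 0.16, SE 0.13, limma adjusted p = 0.446). Without NZO 007 the log2 fold change at this probe was 0.05 (SE 0.08). The files name this brighter probe Gstm1 by its accession but place it at chr5:117082490-117082549 of mm9, outside the mu cluster.

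Gstm4 moved in opposite directions at its probes. Here as elsewhere, the brighter probe is that with the higher mean over the 8 arrays, while in NZO alone the other Gstm4 probe read higher. At the brighter one (A_65_P02177, chr3:107846495-107846847 of mm9, across an exon junction) the NZO arrays read 2.74, 2.82, 2.57 and 2.56 and the B6 arrays 3.51, 3.74, 3.59 and 3.59, with a log2 fold change of -0.94 (SE 0.10, limma adjusted p = 0.000569). At the other (A_51_P327585, chr3:107843802-107843861 of mm9) the NZO arrays read 3.34, 3.46, 3.11 and 3.14 and the B6 arrays 1.91, 2.09, 1.84 and 1.94, with a log2 fold change of 1.31 (SE 0.11, limma adjusted p = 0.000152). The strains did not overlap at either probe, so no single direction can be given for Gstm4.

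The difference between 2 probes of a gene was compared between the strains for 7 pairs of probes, since it does not depend on the scaling of the array. For Gstm4 the other probe minus the brighter one was 0.59 ± 0.04 in NZO and -1.66 ± 0.06 in B6 (SD, n = 4 each), a difference of 2.25. For Gstm3 it was -4.78 ± 0.44 and -0.82 ± 0.09, a difference of -3.96. For Gstm1 it was -2.98 ± 0.05 and -1.43 ± 0.12, a difference of -1.55. In these 3 pairs the strains did not overlap, and the two-sided exact permutation test gave p = 0.0286, the smallest that 4 against 4 arrays allow. The Benjamini-Hochberg adjusted p over the 7 pairs was 0.0667. How many probe pairs of other genes separate the strains in this way was not counted here. The 2 further pairs of Gstm2 differed by 0.18 and -0.31 (exact p = 0.0571 each, adjusted p = 0.08), and those of Gsta3 and Gstp1 by 0.03 and -0.03 (exact p = 0.486 and 0.714, adjusted p = 0.567 and 0.714). The adjusted threshold was thus not reached by any pair, although the differences for Gstm1, Gstm3 and Gstm4 were many times the spread between mice. With only 3 of the 7 pairs at the smallest p allowed, an adjusted p of 0.05 was out of reach.

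**Figure D2:**
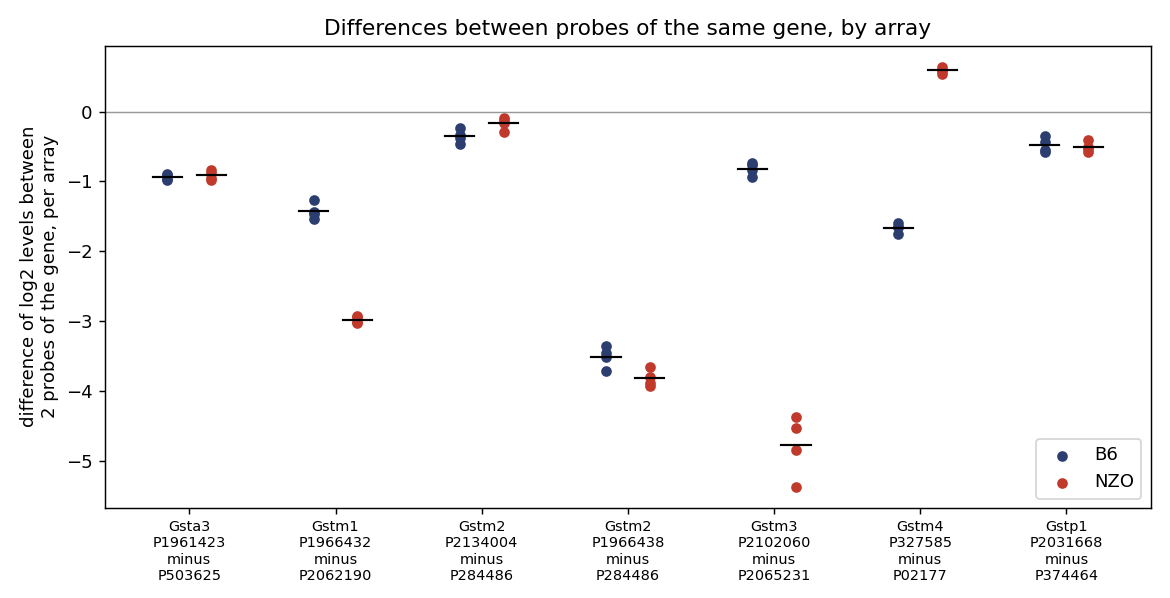
Difference of log2 levels between 2 probes of the same gene on each array (points), with the mean of 4 arrays per strain (black lines). Blue B6 and red NZO points are separated for Gstm1, Gstm3 and Gstm4, by -1.55, -3.96 and 2.25 between the means, and lie together for Gsta3 and Gstp1.

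Gstp1, the pi class enzyme that is known to be high in male mouse liver, did not pass the thresholds. At the brighter probe (A_51_P374464, chr19:4035908-4036723 of mm9) the NZO arrays read 8.74, 8.61, 8.03 and 8.72 and the B6 arrays 8.96, 8.81, 8.83 and 8.91. All NZO values lay below all B6 values, by a gap of 0.07, with NZO 009 the lowest. The log2 fold change was -0.35 (SE 0.17, limma adjusted p = 0.212), and at the other probe, where the strains overlapped, it was -0.38 (SE 0.20, limma adjusted p = 0.259). Without NZO 009 both were -0.19.

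The theta class enzymes act on small halogenated compounds. Gstt1 (A_55_P2024841, chr10:75246560-75246619 of mm9) read 6.61, 6.81, 6.78 and 6.63 in NZO and 6.50, 6.52, 6.79 and 6.61 in B6. These values overlapped, with a log2 fold change of 0.10 (SE 0.11, limma adjusted p = 0.575). Gstt3 (A_51_P377856, chr10:75236966-75237025 of mm9) read 2.93, 3.45, 3.77 and 3.72 in NZO and 2.53, 2.36, 3.10 and 2.73 in B6. The strains overlapped at 1 array each, NZO 007 and B6 015. Its log2 fold change of 0.79 (SE 0.23, unadjusted p = 0.00785) passed the methods' thresholds but not the adjusted one (limma adjusted p = 0.0534). The call was lost without NZO 009 (0.69) or without B6 010 (0.68), and with scan day as a term, where it was just under the threshold at 0.70 (SE 0.21). It was 0.92 among the 3 NZO and 2 B6 arrays of the first scan day and 0.31 among the 1 NZO and 2 B6 arrays of the second.

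The 4 mu class genes lie together on chromosome 3 with Gstm5, Gstm6 and Gstm7, and the neighbouring probes were compared to see how far the strain differences extend; this window was chosen after values were seen. Between chr3:107701101-107846847 of mm9, 16 probes carried a Gstm name, 14 of them were tested, 11 were lower in NZO, 2 were higher and 1 was not called. Gstm6 was lower at 3 probes (log2 fold changes -3.79, -3.93 and -3.94), which lie between those of Gstm7 and Gstm3. Gstm7 gave 2.29 (SE 0.10) at its brighter probe and 0.14 (SE 0.10) at the other. Gstm5, at the end of the cluster, gave -0.81 (SE 0.13). Within 200 kb on either side and between the Gstm genes, 16 further probes were tested, of which 1 was lower, 2 were higher and 13 were not called. The lower one was a probe for Cyb561d1 (-1.39, SE 0.14), whose other probe gave 0.07 (SE 0.25), and the higher ones were a probe for Ampd2 (0.81, SE 0.11), whose other probe gave 0.35 (SE 0.09) and was not called, and the unnamed probe A_55_P2016662 (1.13, SE 0.17), which lies inside the cluster between those of Gstm7 and Gstm6. Gnai3, a G protein subunit beyond Ampd2 and Gnat2, gave 0.01 (SE 0.15).

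**Figure D3:**
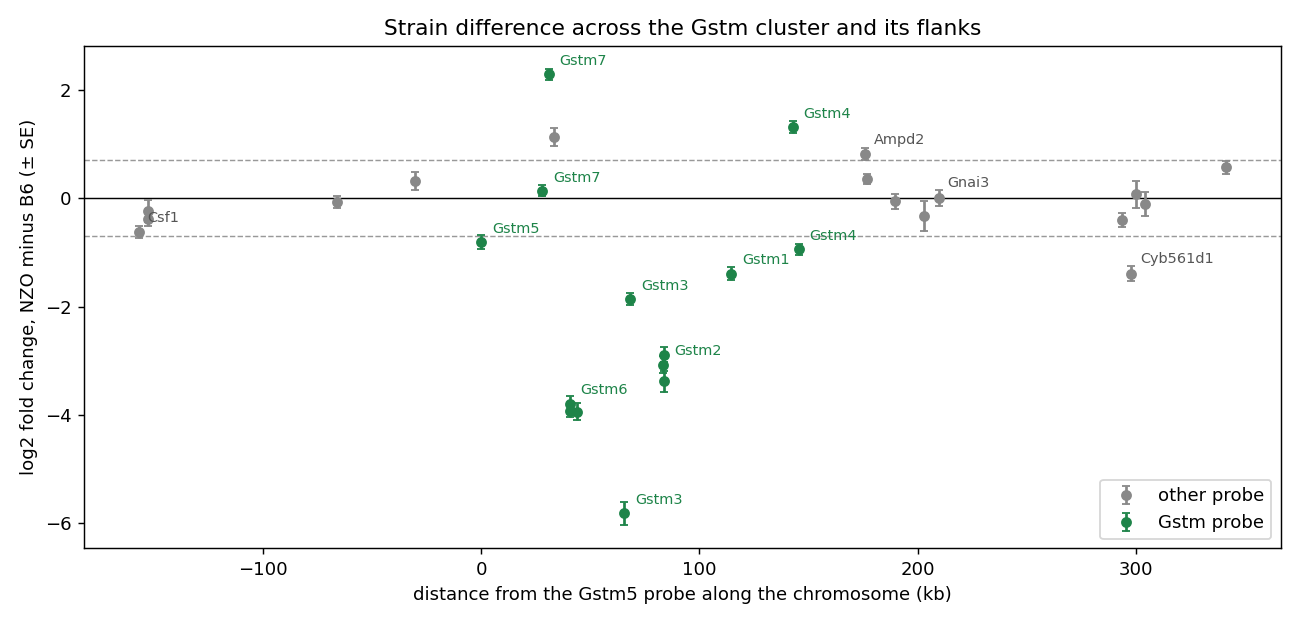
Log2 fold change, NZO minus B6, with its SE (error bars) for each tested probe of the Gstm cluster on chromosome 3, against the distance from the Gstm5 probe in kb. Dashed lines mark 0.7 in either direction. Green Gstm probes range from -5.82 to 2.29, and of the 16 grey probes of other genes 13 were not called.

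Neighbours at the other loci were compared in the same way, and those named were chosen after values were seen. At the alpha locus on chromosome 9, 18 further probes were tested within the same distance, and 6 were lower in NZO, among them those of Gm10639 and Gm3776. Of these 6, 4 were tested only through B6, since not all of their NZO arrays were above background, and the probe for Gm3776 and 1 other cover the same bases, so that this site counts 2 times. Near Gsta3 on chromosome 1, the non-coding transcript Gm4956 was lower in NZO (-3.62, SE 0.36, limma adjusted p = 0.000301), while Gsta3 itself was not. Close to Gstt1 and Gstt3 on chromosome 10, 1 of 14 further probes was lower, that of Derl3 (-2.12, SE 0.32), and around Gstp1 on chromosome 19, 1 of 34 was called higher, that of Cabp2, which was tested only through NZO because not all B6 arrays were above background (3 of 4), and no fold is given.

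The upstream sequences of the genes were searched for the core of the antioxidant response element, TGACNNNGC, and that of the xenobiotic response element bound by AHR, GCGTG, on both strands of windows from 250 bases before to 50 bases after the transcription start (RefSeq, GRCm38.p6). A window was given for 9 of the 10 genes, 12 windows in all. TGACNNNGC occurred in 1 of the 12 windows, that of Gsta3, and in 12.4% of the 32851 windows of all genes. GCGTG occurred in 4 windows, of Gsta2, Gstm1 and Gstp1, and in 32.4% of all windows. The windows of Gstm1 overlap, and their matches are 1 and the same site. No window of these genes held both motifs. The 250 bases before the start are shown for Gsta3, which did not pass the thresholds, and for the genes that were lowest in NZO, with matches in capitals:
Gsta3 (chr1:21240335-21240584, plus strand): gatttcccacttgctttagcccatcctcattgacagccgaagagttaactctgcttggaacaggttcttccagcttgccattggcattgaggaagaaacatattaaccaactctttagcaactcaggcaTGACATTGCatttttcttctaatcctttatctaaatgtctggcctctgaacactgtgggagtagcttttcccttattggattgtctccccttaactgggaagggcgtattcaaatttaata
Gsta2 (chr9:78347146-78347395, minus strand): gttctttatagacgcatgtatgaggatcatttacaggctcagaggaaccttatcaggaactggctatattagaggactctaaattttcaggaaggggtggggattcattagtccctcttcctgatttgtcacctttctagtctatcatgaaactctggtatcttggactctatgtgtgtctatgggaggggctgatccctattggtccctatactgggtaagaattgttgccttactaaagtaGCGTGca
Gstm2 (chr3:107986421-107986670, minus strand): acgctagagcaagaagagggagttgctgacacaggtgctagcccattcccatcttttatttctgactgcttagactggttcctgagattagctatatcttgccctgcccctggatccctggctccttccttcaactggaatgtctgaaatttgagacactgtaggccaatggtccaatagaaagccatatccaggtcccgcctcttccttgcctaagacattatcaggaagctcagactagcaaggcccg
Gstm3 (chr3:107969175-107969424, minus strand): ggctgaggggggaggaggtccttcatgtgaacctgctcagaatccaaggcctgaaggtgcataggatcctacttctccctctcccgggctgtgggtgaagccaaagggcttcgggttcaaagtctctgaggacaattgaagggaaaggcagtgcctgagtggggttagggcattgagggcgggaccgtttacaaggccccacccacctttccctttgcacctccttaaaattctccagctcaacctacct
For Gstm2 and Gstm3 neither motif was found in this window, and for Gsta2 TGACNNNGC was not found. This says only that these letters are not in the window, and sequence further upstream was not searched.

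With each gene represented by its brightest tested probe, 6.62% of 20156 genes were lower in NZO and 5.24% were higher. On this basis 4 of the 10 genes were lower (Gsta2, Gstm2, Gstm3 and Gstm4), 1 was higher (Gstt3) and 5 were not called, among them Gstm1, with a median log2 fold change of -0.12 against 0.03 over all genes. For Gstm4 and Gstm1 this count depends on the probe, since the other Gstm4 probe was higher and the Gstm1 probe in the cluster was lower. Of 18 other glutathione transferases, 17 had a probe of that name and 14 were tested, of which 2 were lower, 2 were higher and 10 were not called. Gstm6 fell from 5.18 ± 0.17 in B6 to 1.38 ± 0.20 in NZO and Gstm5 from 0.96 ± 0.14 to 0.15 ± 0.21, while Gstm7 rose from 2.32 ± 0.11 to 4.61 ± 0.08 (SD, n = 4 each). The other Gstm7 probe gave 0.14 (SE 0.10) and was not called, so this count too depends on the probe. The omega class gene Gsto2 was called higher, at -2.45 ± 0.16 in NZO, but 2 of the 4 B6 arrays were not well above background and no fold is given. The microsomal enzyme Mgst1 (0.16, SE 0.11), the kappa class Gstk1 (0.22, SE 0.14), the zeta class Gstz1 (0.00, SE 0.09) and Gstp2 (0.21, SE 0.10) did not pass.

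Of 16 genes of glutathione synthesis and recycling, 15 were tested, 2 were higher in NZO, 0 were lower and 13 were not called. Glrx, the glutaredoxin that reduces mixed disulphides with glutathione, rose from 2.24 ± 0.10 in B6 to 4.11 ± 0.33 in NZO (log2 fold change 1.87, SE 0.17, limma adjusted p = 0.000171). Ggct, which cleaves gamma-glutamyl peptides, rose by 0.89 (SE 0.16, limma adjusted p = 0.00655). The subunits of the rate-limiting enzyme of glutathione synthesis gave -0.18 (Gclc, SE 0.24) and 0.03 (Gclm, SE 0.11). Slc7a11, the cystine transporter, was not well above background on any array.

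Of 15 genes for the export and mercapturate steps, 13 were tested, 2 were lower in NZO, 1 was higher and 10 were not called. Abcc3, an exporter of organic anion conjugates towards the blood, fell from 3.47 ± 0.21 in B6 to 2.22 ± 0.03 in NZO (-1.25, SE 0.12, limma adjusted p = 0.000264). Ggt6, of the gamma-glutamyltransferase family, fell by 1.58 (SE 0.32, limma adjusted p = 0.0128). Dpep1, a dipeptidase that can cleave cysteinylglycine, rose by 1.11 (SE 0.16, limma adjusted p = 0.00218). Abcc2, the main canalicular pump for glutathione conjugates, gave -0.16 (SE 0.10).

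Of 12 transcription factors and partners known to act on these genes, all were tested, 2 were lower in NZO, 0 were higher and 10 were not called. Nr1i3, which encodes CAR, fell from 3.63 ± 0.18 in B6 to 2.62 ± 0.26 in NZO (-1.01, SE 0.16, limma adjusted p = 0.00337). Maff, a small MAF protein, was called lower, at -2.30 ± 0.40 in B6, but it was above background on 1 of the 4 NZO arrays, so that no fold is given. Nfe2l2, the gene of NRF2, gave -0.22 (SE 0.21), its inhibitor Keap1 gave 0.10 (SE 0.10), Nr1i2, which encodes PXR, gave -0.01 (SE 0.22) and Ahr gave -0.05 (SE 0.24). Of 12 NRF2 target genes outside the family, 11 were tested, 1 was lower (Hmox1, heme oxygenase, -0.93, SE 0.15), 0 were higher and 10 were not called, with Nqo1 at -0.02 (SE 0.19).

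**Figure D4:**
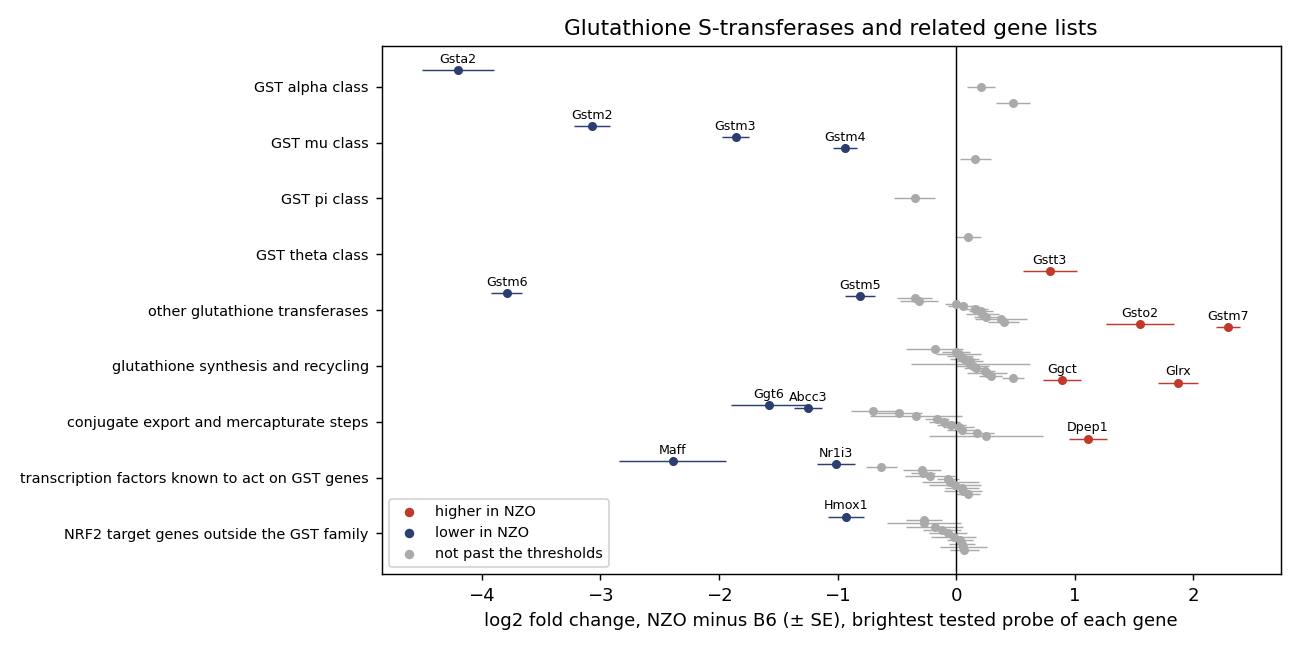
Log2 fold change, NZO minus B6, with its SE (error bars) for the brightest tested probe of each gene, by class or gene list. Genes past the thresholds are named, in red where higher and in blue where lower in NZO. The unnamed genes, in grey, lie between -0.70 and 0.48, and Maff in NZO and Gsto2 in B6 were above background on only 1 and 2 of the 4 arrays.

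By the root mean square difference of mean-centred log2 levels over the 8 arrays, among 24446 other probes above background on all of them, the pattern most like that of the Gstm3 probe with the largest difference was that of a probe named only by its interval on chromosome 6 (0.406), followed by Cyp39a1, an oxysterol hydroxylase (0.433), and 1100001G20Rik (0.443). Their log2 fold changes were -5.77, -5.64 and -5.26. Values close to the -5.82 of this Gstm3 probe follow from the way these probes were picked, and shared regulation was not tested.

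Of 5 hepatocyte markers, 0 passed the thresholds, and their summed log2 level was 11.89 to 11.94 in NZO and 11.55 to 11.88 in B6, with Alb the brightest probe. Of 4 red blood cell markers 3 were higher in NZO (Hba-a1, the brightest probe, by 1.00, Hbb-b1 by 0.81 and Alas2 by 0.90), with a summed log2 level of 8.19 to 8.88 against 7.28 to 7.70. Of 5 bile duct cell markers, 4 were tested and 3 were lower in NZO (Sox9, Krt7 and Spp1, the brightest probe), with a summed log2 level of 0.77 to 1.35 against 1.79 to 2.46, while Epcam was not above background on any NZO array and Krt7, tested only through B6, was above it on 2 of 4. Of 5 leukocyte markers 1 was lower (Itgax, tested only through B6, with 2 of 4 NZO arrays above background), and the brightest probe was that of Cd3e, with a summed log2 level of 3.44 to 4.23 against 3.44 to 3.74. Of 6 adipocyte markers Adipoq, Plin1 and Lep, and of 6 exocrine pancreas markers Cela3b, Pnlip, Cpa1 and Prss2, were not above background on any array, and no tested one was called higher or lower. The sum of the adipocyte list was 9.14 to 9.33 in NZO and 8.68 to 8.91 in B6. This sum was almost entirely the level of Car3 (9.21 ± 0.09 against 8.74 ± 0.11), which hepatocytes are also known to express. Of the other tested adipocyte markers, Cidec gave 0.42 (SE 0.21) and Fabp4 gave -0.30 (SE 0.15), and neither was called. For the exocrine pancreas list, with Ctrb1 the brightest probe, the sum was 0.44 to 1.2 and 0.37 to 0.81. The 4 skeletal muscle markers, with Myh4 the brightest probe, summed to 4.15 in NZO 007 and 2.51 in B6 010, against -2.88 to -1.73 in the other NZO and -1.34 to 0.49 in the other B6 arrays. Without these 2 arrays, an alternative chosen after seeing the data, 8 of the 17 glutathione S-transferase probes were lower and 2 were higher, as with all arrays. The part of red blood cells, bile duct cells and adipocytes in the glutathione S-transferase levels was not tested.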

How the data were processed

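Liver RNA of 4 NZO and 4 B6 mice was hybridised to 1-colour Agilent arrays. For every array the authors deposited scanner output, whose processed signal is an intensity after background subtraction within the array (Feature Extraction 11.0.1.1 per the file headers, while the submitters' processing notes name Agilent Feature Extraction 9.1), and a table of the series, which equalled the raw median intensity at all probes compared (tolerance 0.01). Probe positions are those of the files (mm9).

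Control and outlier spots were left out, log2 intensity minus the 75th percentile of the array was taken, spots of a probe were averaged, and probes detected (well above background) throughout the 4 arrays of either strain were tested (27639 of 55681). The strains were compared in limma 3.58.1 (R 4.3.3) without a block. The thresholds were those of the methods. P-values measure the spread between mice, and shared litters or cages are not given. Between 50.4% and 55.0% of spots on NZO arrays and 53.1% and 60.1% on B6 arrays were well above background, 0 were saturated, and the number of arrays limits the precision. Differences between probes of a gene were tested with an exact permutation test (scipy). The 8 arrays lay on 5 slides and 2 scan days. The comparison was tested on simulated data, whose outcome is not given here and on which no result rests. Python with pandas, numpy and matplotlib made tables and plots.

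The members and gene lists were chosen with earlier results of these data known. All probes of the members were reported, at the brightest probe and at further probes whose call or direction differed; of other lists, up to 4 genes past the thresholds with the largest change were named, besides Nfe2l2, Keap1, Nr1i2, Nr1i3 and Ahr, and further genes named were chosen after their values were seen. Alternatives were normexp correction (offset 50), quantile normalization, the median of detected probes as scale, the deposited table, no filter on dim probes, outlier spots kept, slide, scan day or mouse number as a term, the methods' t-test, adjusted p, averaging a gene's probes and leaving out each mouse.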

Additional observations from a re-analysis of the deposited data

Results flagged for a closer look

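Among 34 groups of 4 arrays (17 probes in each strain), 1 array stood apart from the others of its strain, and chance alone marks about 1 in 20 such groups. At the brighter Gstm1 probe, NZO 007 read 7.43, and its gap to the nearest of the other NZO arrays was 0.858 of the range, above the critical value of Dixon's test. The same array had the highest summed level of skeletal muscle markers (4.15). Whether they are related was not tested.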

How the results depend on the processing

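In all alternatives the lower Gsta2, Gstm1, Gstm2, Gstm3 and Gstm4 probes stayed past the thresholds. The number of higher probes of the 10 genes was 2 and became 1 with adjusted p, normexp correction, the deposited table, or slide or scan day as a fixed term, and 1 to 2 without 1 mouse, since Gstt3 left the thresholds. Its log2 fold change stayed close to 0.79 in most of these, at 0.69 with normexp correction (unadjusted limma value 0.00569), 0.72 with slide (0.0975) and 0.70, just under the threshold, with scan day (0.0115), and was 0.53 in the deposited table. The number of lower probes was 8 in each of these, and 8 without any 1 mouse. Over all probes, normexp correction gave 649 higher and 614 lower instead of 1426 and 1956, and the deposited table gave 602 higher. Without 1 mouse these ranged from 1401 to 1562 and from 1907 to 2238. The deposited table, which is not scaled between arrays, moved the median of all probes to -0.15, and with it the small differences of Gsta3 (-0.02 at both probes), Gstm1 at the brighter probe (-0.11) and Gstt1 (-0.12) reversed. Gstt1 also reversed with quantile normalization (-0.03). Averaging a gene's probes gave 1 gene higher and 3 lower, against 1 and 4 at the brightest probe, and the gene no longer called was Gstm4.

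The strains share the mouse numbers 009 and 011, but deviations of equally numbered mice correlated at -0.26 and -0.0041, so the numbers were not taken as pairs. With the mouse number as a replicate block, 2 probes were higher and 9 were lower, the further one being the second Gstp1 probe (-0.71, limma unadjusted p 0.0492), and over all probes 1747 were higher and 2423 lower.

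The lowest levels found above background on the NZO arrays were -4.24 to -3.95, against -3.82 to -2.46 for Gsta2. Normexp correction adds an offset of 50, where the 75th percentile of the processed signal was 119 to 159, so that dim levels are drawn together by its construction. It gave log2 fold changes of -2.15 for Gsta2, -2.06 for the dimmest Gstm2 probe and -3.95 for the second Gstm3 probe.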
